A study of Homo sapiens with 18 samples.

Results

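The genes described here are those that make serine from glucose and pass its carbon to folate. There were 10 of them, PHGDH, PSAT1, PSPH, SHMT1, SHMT2, MTHFD1, MTHFD2, MTHFD2L, MTHFD1L and ALDH1L2, chosen by name as enzymes of the pathway and found among the 58302 genes of the count table. They were measured by RNA-seq in U87MG, an established human glioblastoma cell line, in 4 libraries. Control cells grew in DMEM with serum, with no treatment or vehicle named in the labels (2 libraries), and the other cells received Erastin at 10 μM for 72 h (2 libraries). Erastin blocks system Xc-, the cystine importer, and so limits the cysteine available for glutathione. Both groups were the same line. The titles call the control libraries U87-WT and the others U87-Erastin without WT, and the labels name no other difference between them. The labels number the libraries of a group but do not say whether they came from separate cultures, so p-values measure only the spread between these libraries. The question was which steps of the pathway differed in mRNA level between Erastin-treated and control cells.

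Serine is made from the glycolytic intermediate 3-phosphoglycerate in a chain of reactions by PHGDH, the dehydrogenase at the entry, PSAT1, the aminotransferase that takes nitrogen from glutamate, and PSPH, the phosphatase that releases serine. Serine hydroxymethyltransferase then moves a carbon unit from serine to tetrahydrofolate and leaves glycine, in the cytosol by SHMT1 and in mitochondria by SHMT2. In mitochondria MTHFD2 or MTHFD2L oxidises that unit and MTHFD1L releases it as formate, while ALDH1L2 can oxidise it to carbon dioxide with formation of NADPH. In the cytosol MTHFD1 carries out the corresponding steps in a single protein and feeds purine and thymidylate synthesis. Several of these genes are known targets of ATF4, the transcription factor of the amino acid and integrated stress responses, and serine and glycine are needed for the synthesis of cysteine and glutathione. In tumour lines the mitochondrial branch is the usual source of formate.

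DNA upstream of the start sites is shown for 4 genes of different behaviour, PSAT1 and MTHFD2, which were higher in Erastin-treated cells, and SHMT1 and MTHFD1L, which did not pass the test. RefSeq (GRCh38.p14) held windows for 7 of the 10 genes, 11 windows in all, because some genes have several starts. Each window was read over the 250 bases before the start, 5′ to 3′ on the gene's strand. It is printed only as far as the first base within it that belongs to an exon of the gene in GENCODE release 44. In the annotation of the count table, whose gene spans are given below, the MTHFD1L window lies inside the gene and the MTHFD2 window ends inside it. Capitals mark the CCAAT box, a common promoter element, on either strand (CCAAT or ATTGG). The windows were chr9:78296875-78297124 (plus strand) for PSAT1, chr2:74198365-74198609 (plus strand) for MTHFD2, chr17:18363564-18363800 (minus strand) for SHMT1, and chr6:150866083-150866332 (plus strand) for MTHFD1L.
PSAT1: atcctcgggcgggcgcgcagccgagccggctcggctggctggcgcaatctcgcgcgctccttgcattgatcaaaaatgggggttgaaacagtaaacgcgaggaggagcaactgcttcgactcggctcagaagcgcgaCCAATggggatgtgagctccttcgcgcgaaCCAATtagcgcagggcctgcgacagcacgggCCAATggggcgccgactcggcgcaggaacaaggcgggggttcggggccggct
MTHFD2: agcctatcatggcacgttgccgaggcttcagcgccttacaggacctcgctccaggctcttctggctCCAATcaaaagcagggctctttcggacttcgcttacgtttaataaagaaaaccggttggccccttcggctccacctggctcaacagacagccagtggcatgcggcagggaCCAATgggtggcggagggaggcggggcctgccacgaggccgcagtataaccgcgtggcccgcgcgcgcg
SHMT1: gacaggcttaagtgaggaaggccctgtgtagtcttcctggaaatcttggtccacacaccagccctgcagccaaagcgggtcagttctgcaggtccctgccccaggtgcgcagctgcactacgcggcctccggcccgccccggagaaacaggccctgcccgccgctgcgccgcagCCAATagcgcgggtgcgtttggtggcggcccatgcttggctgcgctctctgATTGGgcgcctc
MTHFD1L: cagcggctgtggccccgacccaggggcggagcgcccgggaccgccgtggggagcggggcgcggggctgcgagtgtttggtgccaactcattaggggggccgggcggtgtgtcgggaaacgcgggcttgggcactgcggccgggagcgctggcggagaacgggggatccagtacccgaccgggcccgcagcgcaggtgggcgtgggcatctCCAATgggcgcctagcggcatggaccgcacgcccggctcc

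The PSAT1 window held 3 CCAAT boxes, with first bases at positions -113, -83 and -52 from the start, and the MTHFD2 window held 2, at -184 and -74. Of 35116 RefSeq promoter windows of the same length, 32.0% had at least 1 match, 9.53% at least 2 and 2.93% at least 3. SHMT1, which did not pass the test, had 2 matches (-76 and -25), and PHGDH had 1 (-71), as did MTHFD1 (-216) and the printed window of MTHFD1L (-40). Those of PHGDH and MTHFD1 lie before the RefSeq start but past the start of an annotated exon of the same gene. Thus 6 of the 7 genes with an entry had a CCAAT match in some window, and the match did not separate genes that rose from genes that did not. No window of MTHFD2L had one.

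The C/EBP-ATF response element, searched as TGATGNAA on both strands, is a sequence that ATF4 can bind with a C/EBP partner. It is present in 3.14% of the RefSeq windows. Among these genes it was found only for MTHFD1L, as TGATGCAA at -90 and -129 from 2 of its neighbouring starts. That is the same base run in both, and it lies past the end of the printed window and past the start of an annotated exon. The windows of PHGDH, PSAT1 and MTHFD2 did not contain these letters, which says nothing of elements elsewhere. The E-box CACGTG (6.34% of all windows) occurred in the window of MTHFD1 (-15) and in windows of MTHFD1L. The TTTNNCGC pattern of E2F sites (5.92%) and the TGACNNNGC core of antioxidant response elements (10.9%) were in none of the 11 windows. None of these matches overlapped another, and the GC box GGGCGG (42.6%) was found for PSAT1, SHMT1, MTHFD2L and MTHFD1L.

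In the serine branch, PHGDH and PSAT1 mRNA rose in Erastin-treated cells, and PSPH did not pass the test. Levels are given as CPM, raw counts rescaled by TMM so that libraries of different size compare, and "rose" or "fell" means an adjusted p under 0.05 in edgeR's quasi-likelihood test over 16751 genes. PSAT1 (ENSG00000135069) stood at 111 and 108 CPM in the control libraries and at 292 and 288 CPM in the Erastin libraries. Both Erastin values lay far above both control values, and the replicates of each group were close together. The control mean of 109 ± 2.46 CPM (SD, n = 2) compares with 289.9 ± 2.44 CPM (SD, n = 2) under Erastin, 2.65-fold higher, with a log2 fold change of 1.41 (SE 0.0657, edgeR adjusted p = 1.23e-08). The gene spans 78297143 to 78330093 on chromosome 9.

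PHGDH (ENSG00000092621, chromosome 1, 119648411 to 119744226), the entry enzyme of the branch, had 172 and 168 CPM in control libraries against 265 and 250.0 CPM in Erastin libraries. The groups did not overlap, and the change was smaller than that of PSAT1. Its log2 fold change was 0.60 (SE 0.0662, edgeR adjusted p = 1.71e-05), or 1.51-fold, which is below the 2-fold limit (log2 of 1) that the study set for its calls. PSPH (ENSG00000146733, chromosome 7, 56011051 to 56051604), the last enzyme, had 31.7 and 33.6 CPM in control and 36.3 and 37.0 CPM in Erastin libraries. Both Erastin values were slightly higher, but the log2 fold change of 0.17 (95% interval -0.04 to 0.37, edgeR adjusted p = 0.181) did not pass. The 3 steps in a row therefore had unequal changes. The PSAT1 to PSPH ratio, per kilobase of exon, went from 4.42 and 4.04 in control to 10.1 and 9.84 in Erastin libraries. The PHGDH to PSPH ratio went from 1.63 and 1.50 to 2.19 and 2.03. Per kilobase of the canonical transcript, a length taken up below, the PSAT1 ratio went from 3.13 and 2.86 to 7.19 and 6.97. On that length the PHGDH ratio went from 5.75 and 5.30 to 7.72 and 7.15, so the level of such ratios depends on the length.

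**Figure D1:**
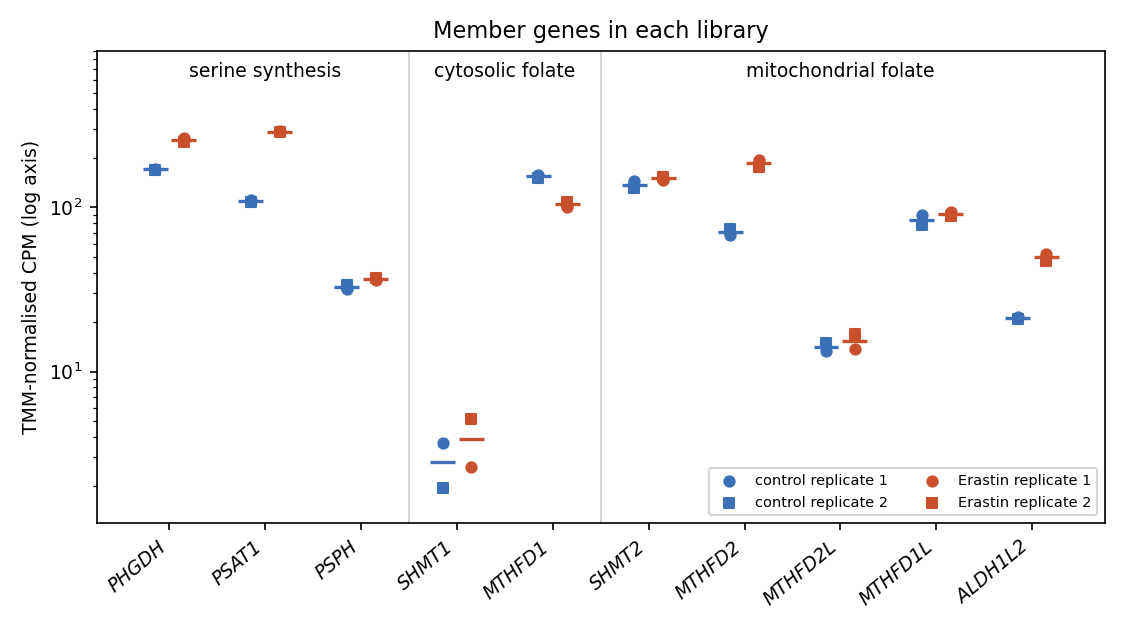
Expression of the 10 genes in each of the 4 libraries, in TMM-normalised CPM on a log axis; points are libraries and bars are group means. PSAT1, MTHFD2, ALDH1L2 and PHGDH lie higher in both Erastin libraries and MTHFD1 lower. PSPH and SHMT2, which did not pass the test, also lie higher in both, by less. The 4 points of SHMT1, between 1.96 and 5.12 CPM, are interleaved.

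In the mitochondrial branch, MTHFD2 and ALDH1L2 rose, whereas SHMT2, MTHFD2L and MTHFD1L did not pass the test. MTHFD2 (ENSG00000065911, chromosome 2, 74198562 to 74217565), the dehydrogenase and cyclohydrolase that is high in embryonic and transformed cells, had 68.2 and 74.0 CPM in control libraries and 194 and 177 CPM in Erastin libraries. Each Erastin library was more than 100 CPM above each control library. The log2 fold change was 1.38 (SE 0.0768, edgeR adjusted p = 5.28e-08), a 2.61-fold rise. ALDH1L2 (ENSG00000136010, chromosome 12, 105019784 to 105084577), the NADPH-forming formyltetrahydrofolate dehydrogenase, had 21.6 and 20.8 CPM in control and 51.8 and 47.5 CPM in Erastin libraries. It was 2.35-fold higher, with a log2 fold change of 1.23 (SE 0.0993, edgeR adjusted p = 1.20e-06) and no overlap between the groups.

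SHMT2 (ENSG00000182199, chromosome 12, 57229327 to 57234935), which loads the carbon unit in mitochondria, had 144 and 130.5 CPM in control and 147 and 153 CPM in Erastin libraries. Both Erastin values lay above both control values, but the spread within control was larger than the gap between the groups. The log2 fold change was 0.13 (95% interval -0.03 to 0.29, edgeR adjusted p = 0.169). MTHFD1L (ENSG00000120254, chromosome 6, 150865549 to 151101887), the formate-releasing enzyme, gave 89.3 and 78.5 CPM in control and 93.8 and 88.1 CPM in Erastin libraries, which overlap (log2 fold change 0.12, edgeR adjusted p = 0.264). MTHFD2L (ENSG00000163738, chromosome 4, 74114174 to 74303099), the adult-type paralogue of MTHFD2, was low, at 13.3 and 14.9 CPM in control and 13.7 and 17.0 CPM in Erastin libraries (log2 fold change 0.13, edgeR adjusted p = 0.517). Without the first control library, 3 genes passed that otherwise did not, SHMT2 (0.20, adjusted p = 0.0304), MTHFD1L (0.21, adjusted p = 0.0410) and the cytosolic SHMT1 (0.98, adjusted p = 0.0194).

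The mitochondrial enzymes thus changed unequally. MTHFD2 stood at 10.3 and 10.0 times its paralogue MTHFD2L in the control libraries and at 28.4 and 21.0 times in the Erastin libraries, per kilobase of exon. ALDH1L2 stood at 0.0849 and 0.0905 of SHMT2 in control and at 0.200 and 0.176 of SHMT2 in Erastin libraries, on the same scale. Per kilobase of the canonical transcript, MTHFD2 stood at 2.74 and 2.66 times MTHFD2L in control and 7.54 and 5.57 times in Erastin libraries. ALDH1L2 then stood at 0.0433 and 0.0462 of SHMT2 in control and 0.102 and 0.0900 in Erastin libraries. In these and the ratios to PSPH, both Erastin libraries lay above both controls. With 2 libraries a group an exact two-sided permutation test can give no p below 0.3333, so these ratios are a description.

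In the cytosolic branch, MTHFD1 fell. MTHFD1 (ENSG00000100714, chromosome 14, 64388031 to 64463457), the trifunctional enzyme, had 157 and 152 CPM in control and 101 and 108 CPM in Erastin libraries, with no overlap. It was 1.48-fold lower in Erastin-treated cells, with a log2 fold change of -0.56 (SE 0.0694, edgeR adjusted p = 3.91e-05). SHMT1 (ENSG00000176974, chromosome 17, 18327860 to 18363563), the cytosolic hydroxymethyltransferase, was the lowest of the 10, at 3.70 and 1.96 CPM in control and 2.61 and 5.12 CPM in Erastin libraries, from raw counts of 113, 61, 78 and 161. Replicates differed more than the group means, 2.83 CPM in control and 3.87 CPM in Erastin libraries. The log2 fold change of 0.45 has a 95% interval from -0.37 to 1.27 (edgeR adjusted p = 0.350). At this depth and replication a difference of that size was not detectable.

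Set against its cytosolic counterpart, MTHFD1L per kilobase of exon was 1.06 and 0.965 times MTHFD1 in control and 1.73 and 1.52 times in Erastin libraries. Per kilobase of the canonical transcript it was below MTHFD1 in every library, at 0.519 and 0.472 times in control and 0.847 and 0.745 times in Erastin libraries. The groups did not overlap, and the shift came with lower MTHFD1 rather than with a called change of MTHFD1L. SHMT2 was 58.8, 100.0, 85.1 and 45.0 times SHMT1 in the first and second control and the first and second Erastin library. These values overlap (exact permutation p = 0.667, two-sided) and rest on the low counts of SHMT1.

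**Figure D2:**
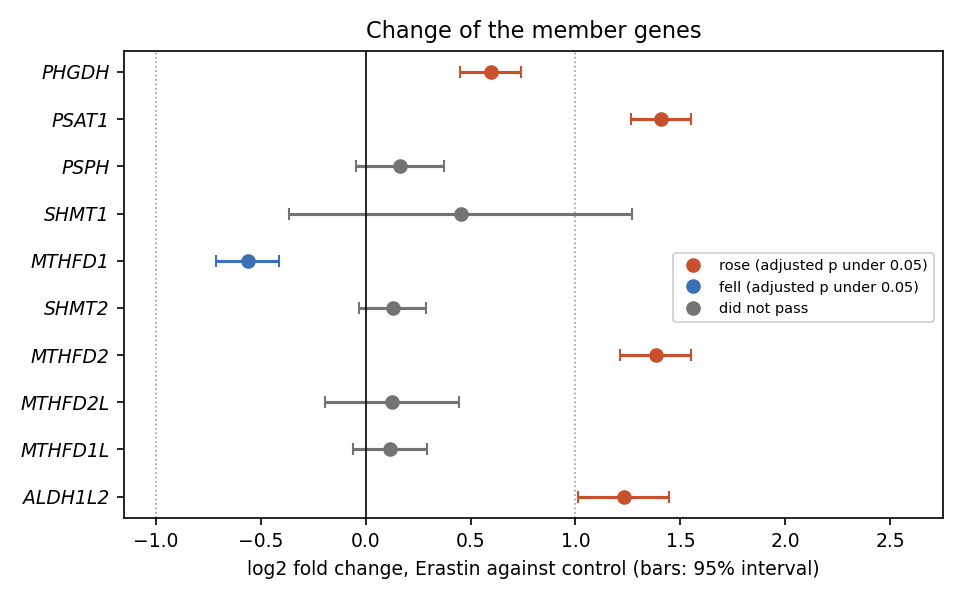
Log2 fold change of each gene, Erastin against control, with its 95% interval from edgeR; dotted lines mark a log2 change of 1 in either direction. PSAT1 (1.41), MTHFD2 (1.38) and ALDH1L2 (1.23) lie beyond the line, PHGDH (0.60) and MTHFD1 (-0.56) have intervals that leave out 0, and the other 5 intervals include 0.

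In total 4 of the 10 genes rose, 1 fell and 5 did not pass. Over all 16751 tested genes 23.2% rose, 23.7% fell and 47.0% did either. With the study's fold limit added, 3 of the 10 were called up and 0 down, beside 6.24% called up and 9.34% called down over all tested genes. All 10 passed the filter on low counts. In 6 genes both Erastin libraries were above both controls and in 1 both were below (36.7% and 36.9% of tested genes, 73.6% together). The median log2 fold change of the 10 was 0.31, against -0.00259 over all tested genes. Summed over the 10 genes, expression was 813 and 782 CPM in control and 1197 and 1171 CPM in Erastin libraries. The number that rose was 7 without the first control library, where 21.7% of tested genes rose. U87MG counts come from bulk RNA, in which fewer cells of a kind and less RNA per cell cannot be told apart.

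Levels of different genes can be compared only per length, and here the order depended on the length taken. Per kilobase of all annotated exons, the length of the deposited table, PSAT1 was highest in all 4 libraries, at 50.0 ± 1.13 CPM per kb (SD, n = 2) in control and 132 ± 1.11 CPM per kb (SD, n = 2) in Erastin-treated cells. SHMT2 followed in control cells, at 28.4 ± 2.04 CPM per kb (SD, n = 2). PHGDH, MTHFD1L, MTHFD1 and MTHFD2 came next, between 14.0 and 18.7 CPM per kb. On this scale MTHFD1L and MTHFD1 in that run did not differ beyond their spread, since they changed places between the control libraries. PSPH stood at 11.8 ± 0.482 CPM per kb (SD, n = 2), and ALDH1L2, MTHFD2L and SHMT1 were lowest, at 2.49, 1.44 and 0.389 CPM per kb.

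PHGDH has 9217 bases of annotated exons but a canonical transcript of 1866 bases, whereas PSAT1 has 2188 and 2206. Per kilobase of the canonical transcript, a length chosen after this was seen, PHGDH was therefore highest in all 4 libraries, at 91.3 ± 1.58 CPM per kb (SD, n = 2) in control and 138 ± 5.59 CPM per kb (SD, n = 2) in Erastin-treated cells. Its lead over PSAT1 was wide in control, where PSAT1 had 49.6 ± 1.12 CPM per kb (SD, n = 2), and narrow in Erastin libraries, where PSAT1 had 132 and 131 beside 142 and 134 for PHGDH. SHMT2 was second in control under both lengths. PSAT1 and MTHFD1 did not differ clearly in control on this scale (50.3 and 48.8 against 49.8 and 48.2 CPM per kb). MTHFD1L was lower than both there, at 25.9 and 22.8 CPM per kb. MTHFD2 moved up in Erastin libraries under both lengths, from rank 6 to 2 per exon kilobase and from rank 7 to 4 per canonical kilobase. SHMT1 was lowest in every library on both scales.

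**Figure D3:**
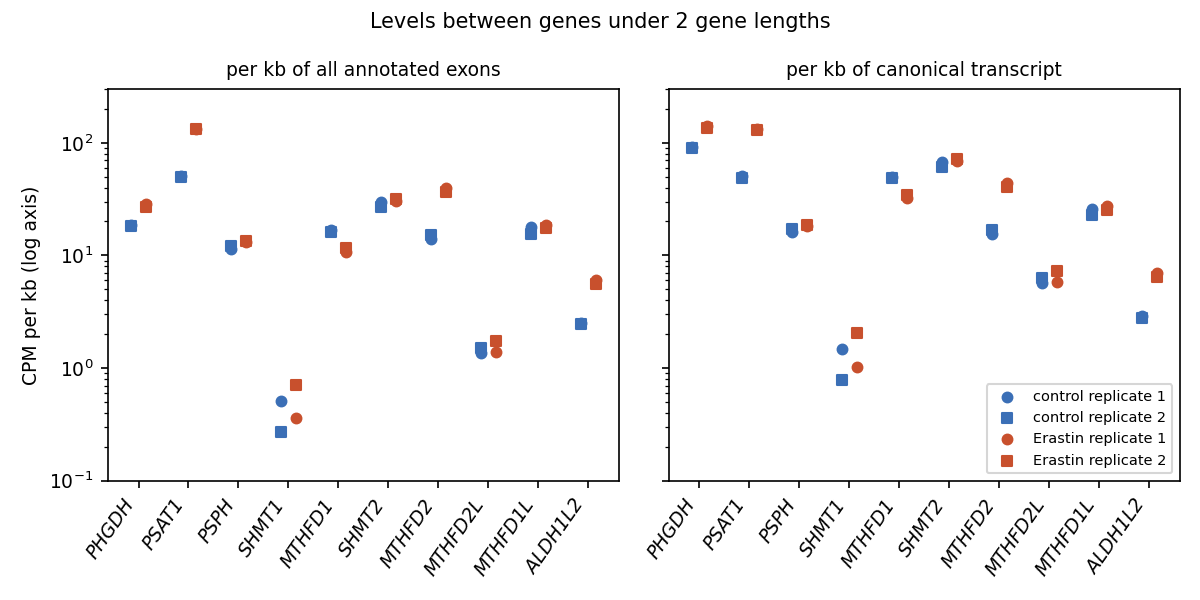
Levels of the 10 genes per kilobase of all annotated exons (left) and per kilobase of the canonical transcript (right), in CPM per kb on a log axis, 1 point per library. PSAT1 is the highest gene on the left and PHGDH on the right, and SHMT1 is the lowest on both.

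Other folate enzymes moved in both directions. Of 14 genes, 13 were tested, and 4 rose, 4 fell and 5 did not pass, with a median log2 fold change of 0.20. Over all 16751 tested genes 23.2% rose and 23.7% fell. TYMS, thymidylate synthase, fell from 30.2 and 28.0 CPM to 20.5 and 20.6 CPM (log2 fold change -0.50, edgeR adjusted p = 0.00244). TYMS shares 26.2% of its exon bases with other genes, so part of its reads may have gone uncounted. ALDH1L1, the cytosolic counterpart of ALDH1L2 and an astrocyte marker, had raw counts of 8 and 15 in control and 22 and 6 in Erastin libraries, so the rise of ALDH1L2 had no measurable parallel there (log2 fold change 0.30, edgeR adjusted p = 0.782). The other genes that passed, named after their values were seen, included MTFMT and MTR, which rose, and GGH and MTRR, which fell. MTR (log2 fold change 0.20, edgeR adjusted p = 0.0367) no longer passed with DESeq2 (adjusted p = 0.0827), with no filter (0.0693), or when any 1 of the 4 libraries was left out (0.0519 to 0.198). The number that rose was 2 without the first Erastin library, where MTFMT was lost as well (adjusted p = 0.0522).

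Purine synthesis and glycine cleavage use the products of the pathway. Their calls stand beside 23.2% of all tested genes that rose and 23.7% that fell. Of the 6 enzymes of purine synthesis, which takes up formyl-folate and glycine, 4 fell (PFAS, PPAT, PAICS and GART), 0 rose, and ADSL and ATIC did not pass, with a median log2 fold change of -0.50. PFAS had the largest fall of these, from 62.9 and 51.3 CPM to 28.4 and 30.8 CPM (log2 fold change -0.95, edgeR adjusted p = 2.37e-05). The glycine cleavage system, which takes glycine apart to load folate in mitochondria, had 1 of 4 genes that fell, DLD (log2 fold change -0.25, edgeR adjusted p = 0.00915), a subunit it shares with other dehydrogenases. That call was lost when either Erastin library was left out (adjusted p = 0.0601 and 0.0851). AMT, GCSH and ADSL share 63.1%, 12.0% and 18.9% of their exon bases with same-strand neighbours, so part of their reads may have gone uncounted.

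Genes of other routes for serine and glycine were mixed. Of 9, 3 rose, 1 fell and 5 did not pass, beside 23.2% that rose and 23.7% that fell over all tested genes. SDSL, a serine dehydratase-like protein, was called up, from 15.5 and 10.4 CPM to 29.7 and 26.96 CPM (log2 fold change 1.13, SE 0.166, edgeR adjusted p = 1.55e-04). SPTLC1 (0.60) and SPTLC2 (0.30), the subunits that join serine to a fatty acid in sphingolipid synthesis, rose, and serine racemase SRR fell (-0.75). SRR shares 42.8% of its exon bases with other genes, so part of its reads may have gone uncounted. PTDSS2, phosphatidylserine synthase, had raw counts of 796 and 754 in control and 683 and 336 in Erastin libraries and did not pass (log2 fold change -0.59, edgeR adjusted p = 0.0735), but passed as lower without the first or second control or the first Erastin library, which brought the number that fell to 2, 3 and 2, with PTDSS1 as the third of them. Glycolysis around 3-phosphoglycerate hardly moved, with log2 fold changes between -0.20 and 0.17 for GAPDH, PGK1, PGAM1, ENO1 and PKM. ENO1 passed as lower (edgeR adjusted p = 0.0314), a call lost without the first control library, without either Erastin library and with library totals (adjusted p = 0.0631). GAPDH (0.17, adjusted p = 0.0589) passed as higher with DESeq2 (adjusted p = 0.0375), library totals (0.0102), no filter (0.0173) and without the first control library (log2 fold change 0.25), where PKM (0.15) passed as well.

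Transporters of folate and serine changed in both directions. Of 11 genes 8 were tested, and 4 rose, 3 fell and 1 did not pass. Over all tested genes 23.2% rose and 23.7% fell. SLC19A1, the reduced folate carrier, fell from 20.05 and 18.3 CPM to 4.88 and 5.06 CPM (log2 fold change -1.95, SE 0.149, edgeR adjusted p = 7.77e-07). It shares 14.0% of its exon bases with another gene, so part of its reads may have gone uncounted. FOLR3, a secreted folate receptor of blood cells, was close to absent in control with raw counts of 2 and 8, and had 162 and 126 in Erastin libraries (log2 fold change 4.83, SE 0.482, edgeR adjusted p = 6.94e-06), a fold that rests on 10 control counts. FOLR1 and FOLR2 had at most 2 counts in any library.

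Among mitochondrial carriers, SFXN1, which imports serine, fell from 105 and 104 CPM to 90.2 and 78.1 CPM (log2 fold change -0.31, edgeR adjusted p = 0.00794), a call lost without the second Erastin library (adjusted p = 0.138). Its relative SFXN2 fell more, from 7.82 and 8.47 CPM to 2.14 and 1.94 CPM (log2 fold change -1.99, edgeR adjusted p = 1.66e-05), while SFXN3 rose (0.30), a call also lost without the second Erastin library (adjusted p = 0.123). SLC25A32, the mitochondrial folate carrier, was at 48.8 and 54.7 CPM in control and 60.0 and 53.8 CPM in Erastin libraries (log2 fold change 0.14, edgeR adjusted p = 0.244). The plasma membrane carriers of serine and other neutral amino acids, SLC1A4 (0.56) and SLC1A5 (0.38), rose. SLC1A5 shares 23.8% of its exon bases with other genes, so part of its reads may have gone uncounted.

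**Figure D4:**
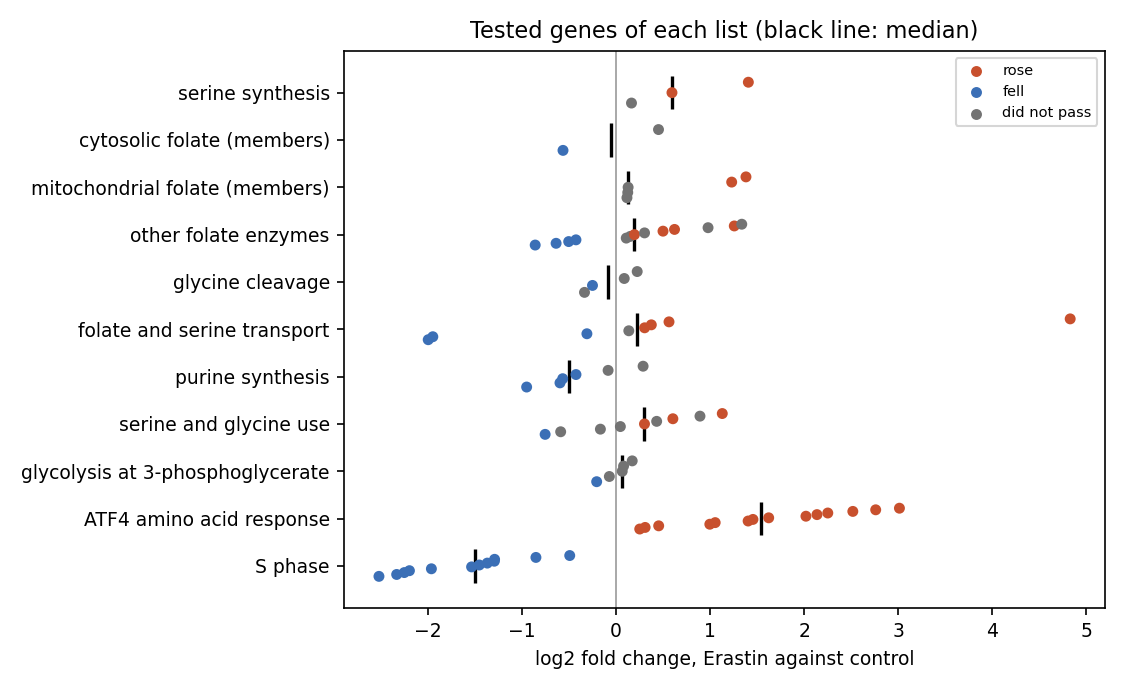
Log2 fold change, Erastin against control, of every tested gene in each list (points, coloured by whether the gene rose, fell or did not pass) with the list median (black line). The ATF4 list lies wholly above 0 (median 1.54) and the S-phase list wholly below (median -1.49), while the folate lists spread on both sides.

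The list for the ATF4 amino acid response was drawn up without the 10 pathway genes, although several of them are known ATF4 targets. The listed genes rose together (median log2 fold change 1.54). Of 14, 14 passed as higher and 10 were called up, beside 23.2% and 6.24% of all tested genes. The list was chosen with earlier results of these data known, so these counts only describe it. Without the first Erastin library CEBPB no longer passed (adjusted p = 0.305), and without the second VLDLR did not (adjusted p = 0.0666), which left 13 in each case. ATF4 itself had 218 and 249 CPM in control and 944 and 949 CPM in Erastin libraries (log2 fold change 2.02, edgeR adjusted p = 2.09e-09). The largest changes were those of the transcription factor ATF5 (3.01), the glutathione-degrading enzyme CHAC1 (2.76), the stress regulator NUPR1 (2.52) and the transcription factor ATF3 (2.25). ASNS, asparagine synthetase, was 2.62 and 3.06 CPM in control and 6.25 and 5.09 CPM in Erastin libraries (log2 fold change 0.998, edgeR adjusted p = 0.00499), just under the fold limit. ASNS shares 44.6% of its exon bases with a same-strand neighbour, so its counts are incomplete. ATF5 shares 23.7% of its exon bases with other genes, so part of its reads may have gone uncounted. The changes of that list ranged from 0.25 to 3.01. PSAT1, MTHFD2 and ALDH1L2, singled out by the fold limit, lie within that wide range. PHGDH (0.60) and SHMT1 (0.45, not passed) lie within it as well, so it does not set the called genes apart. These values describe sizes in the same libraries, and no regulator was measured at the 10 pathway genes.

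Genes of S phase moved the other way (median -1.49). Of 12, 12 were lower and 10 were called down, beside 23.7% and 9.34% of all tested genes. This list too was chosen with earlier results known, so its counts are a description. MCM5 (-2.52) and MCM7 (-2.25), subunits of the replicative helicase, CDC45 (-2.33) and GINS2 (-2.19) had the largest falls. The summed level of the 12 genes was 1319.6 and 1272 CPM in control and 499.9 and 484 CPM in Erastin libraries. These moved beside the falls of MTHFD1, TYMS and the purine enzymes PFAS, PPAT, PAICS and GART, and their part in those falls was not tested.

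Sequence shared with other genes bears on how well each gene was counted. The counting used no strand and left out reads that matched several genes or places. MTHFD2 shares 33.2% of its exon bases with SLC4A5 and a further gene on the opposite strand, which had at most 18 counts in a library, and MTHFD1 shares 11.0%, in part with ZBTB25 (953 to 1214 counts). SHMT2 shares 9.51%, of which 427 bases are shared with a noncoding gene that had at most 1 count in a library. Only 33 bases are shared with NDUFA4L2, which had 54 and 45 counts in control and 180 and 190 in Erastin libraries. PHGDH, PSAT1, PSPH and MTHFD1L share none. Words of 31 bases from the canonical transcript recur elsewhere on the primary chromosomes for 31.2% of PSAT1, 26.0% of PSPH, 24.5% of MTHFD2, 17.6% of MTHFD1 and 10.0% of SHMT1, and for 0% of PHGDH, SHMT2 and MTHFD2L. The 14 annotated pseudogenes of these 5 genes had at most 15 counts over all 4 libraries, that of MTHFD2P7. Levels of PSAT1, PSPH, MTHFD2, MTHFD1 and SHMT1 may therefore be understated, by the same counting rule in both groups.

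Library totals lay between 29412656 and 31513519 counts, with the 2 reads of a pair counted separately, and TMM factors between 0.971 and 1.02. The biological coefficient of variation was 10.3%, and replicates of each group differed beyond sampling noise. Of the glioma line markers, VIM and CD44 were high in every library, whereas S100B had at most 2 counts and SOX2 at most 6, and GFAP (41 to 81 counts) and OLIG2 (59 to 88) were low. Of the 6 tested, 4 fell, NES (-3.62), CHI3L1 (-2.26), VIM (-0.60) and CD44 (-0.36), and 0 rose. Over all tested genes 23.7% fell and 23.2% rose. Markers of other cell types summed to 7.33 and 9.14 CPM in control and 3.51 and 3.25 CPM in Erastin libraries over 10 genes, with CD3E at 0 and PTPRC and CDH5 at most 1 count. PECAM1, an endothelial marker, made up most of that sum in control (138 and 188 counts against 31 and 33 in Erastin libraries, log2 fold change -2.34, edgeR adjusted p = 4.81e-05).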

How the data were processed

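RNA-seq of U87MG cells gave 4 libraries, grouped by their labels into 2 control and 2 Erastin libraries. The authors deposited raw read counts for 58302 genes; per the file headers the table came from featureCounts 2.0.3 with Ensembl release 90 on GRCh38 (the submitters' processing notes give HISAT2 2.1.0 and featureCounts 2.0.4, and the paper htseq-count). No normalization had been applied. Decimals, which deposited estimated counts would have, were looked for and none were found, and rounding changed no value. Symbols were joined by Ensembl identifier for 57532 genes, and exon lengths were those of the table.

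R 4.3.3 and edgeR 4.0.16 were used for the test (filterByExpr with a minimum count of 10, TMM, quasi-likelihood, 16751 genes, Benjamini-Hochberg adjustment, two-sided). Calls up or down also needed an absolute log2 fold change of 1, the limit set in the study. Intervals used 11.5 degrees of freedom. The script was tested on simulated data.

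The genes and all lists were chosen with earlier results of these data known. Besides the 10 genes, the text names up to 4 genes per list past both limits, and TYMS, SLC25A32, SFXN1, ATF4, ASNS and ALDH1L1; some genes the rule would name are not reported here, and any further gene was picked for naming once values were known. The fit was repeated with DESeq2 1.42.0, RLE factors, library totals, other count filters, halved counts, a replicate block, and each library left out; the canonical transcript length was added after seeing the data. Sequences came from RefSeq and shared words from hg38. ChIP-seq and HiChIP samples were not analysed here, and no protein comparison was made. Counts from PCR reads are not independent molecules.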

Additional observations from a re-analysis of the deposited data

How the results depend on the processing

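The direction and the call of PHGDH, PSAT1, MTHFD2, ALDH1L2 and MTHFD1 were the same in all 11 alternatives. Leaving out each library in turn gave log2 fold changes of 1.38 to 1.43 for PSAT1, 1.31 to 1.45 for MTHFD2, 1.16 to 1.29 for ALDH1L2, 0.55 to 0.64 for PHGDH and -0.61 to -0.52 for MTHFD1. The number of the 10 genes that rose ranged from 4 to 7 over these 4 fits, the 7 without the first control library, and the number that fell stayed at 1. Values that turned sign were SHMT1 (-0.12 to 0.98) and MTHFD2L (-0.036 to 0.27), both lowest without the second Erastin library, and the log2 change of the SHMT2 to SHMT1 ratio (-0.31 with all libraries, -0.77 to 0.15 over these fits, 0.073 without the second control and 0.15 without the second Erastin library). The cause was not tested. With no composition scaling (library totals), the median log2 fold change of all tested genes moved to 0.047, and no call among the 10 changed. DESeq2, with 3361 genes higher and 3435 lower, also changed none of them.

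Same-numbered libraries did not deviate together, so the numbers were not taken as pairs. The correlation of their deviations from the group means was 0.029 across the 16751 tested genes. With 2 libraries a group the second pair only mirrors the first. With a replicate block 4 of the 10 genes rose and 1 fell, 3 were called up and 0 down; in the lists, ENO1 no longer passed (adjusted p = 0.0687) and PTDSS2 passed as lower (adjusted p = 0.00290). With 2 libraries a group, differences such as those of PSPH or SHMT2 can be missed, and for SHMT1 the counts of 61 to 161 limit precision.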
